A study of Mus musculus with 16 samples.

Results

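Orthochromatic erythroblasts (Ortho-E), the last nucleated stage of red cell maturation, were compared between *Ypel4*-/- and *Ypel4*+/+ mice at the level of functions, expression classes and single genes beyond *Ypel4* itself, its trap cassette and its neighbours. The comparison used all libraries titled Ortho-E, 4 *Ypel4*-/- and 4 *Ypel4*+/+ of the 16 libraries of the series, and the 8 libraries of polychromatic erythroblasts (Poly-E), the stage before, were set beside them. The *Ypel4*-/- mice were homozygous for Ypel4<tm1a(EUCOMM)Wtsi>, a trap allele that acts in every cell of the body, and the *Ypel4*+/+ mice were wild-type. The labels give both genotypes the same strain, C57BL/6N-A<tm1Brd>, in the line WtsiIeg. The cells were sorted from steady-state bone marrow by CD44 and Ter119, with dead cells removed, and the labels used here give neither age nor sex. The labels do not say whether the 4 libraries of a genotype came from 4 mice, so p-values measure the spread between these libraries. Depth ran from 2670173 counts in *Ypel4*+/+ replicate 2 to 8287509 in *Ypel4*-/- replicate 4.

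In orthochromatic erythroblasts the nucleus condenses and transcription winds down. Messages for hemoglobin, heme synthesis and the membrane skeleton come to dominate while those for division and biosynthesis are lost, and the cell then expels its nucleus to become a reticulocyte. Spectrin, ankyrin, protein 4.1 and band 3 form the network under the red cell membrane that gives the later red cell its shape and its ability to deform. YPEL4 belongs to a family of small conserved proteins with a zinc-binding domain whose molecular function is poorly known. Loss of such a protein could act on the transcriptome through a few genes or through a small shift shared by many, and the second kind was looked for here, together with the size of change that the libraries leave room for.

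The libraries matched their label. The summed level of 13 erythroblast markers was 94953 to 106779 CPM (counts scaled to the library size after TMM normalization) in *Ypel4*-/- and 96095 to 117992 CPM in *Ypel4*+/+ libraries. Markers of neutrophils summed to 3.55 to 12.3 and 3.74 to 13.8 CPM, of monocytes and macrophages to 9.22 to 15.5 and 8.25 to 13.2 CPM, and of T and NK cells to 2.79 to 6.39 and 1.87 to 5.76 CPM. Megakaryocyte markers reached 102 to 114 and 105 to 117 CPM, most of it *Itga2b* and *Vwf*. Of these 14 markers 4 were at 0 in all 8 libraries, *Pf4*, *Gp1bb* and *Treml1* among them. In contrast, *Gp9* had 232 counts and *Gp1ba* 16 over the 8 libraries. B cell markers were at 42.1 to 65.6 CPM in *Ypel4*-/- and 31.0 to 46.1 CPM in *Ypel4*+/+ libraries, and 8 of 10 tested were on the higher side. Stem and progenitor markers were low but without overlap, at 4.31 to 5.28 CPM in *Ypel4*-/- and 3.32 to 3.77 CPM in *Ypel4*+/+ libraries, most of it *Myb*, with *Kit* at 0 in all 8. Markers of endothelial and stromal cells reached 1.04 to 2.28 and 0.840 to 4.21 CPM and those of mast cells and basophils at most 0.932 and 1.12 CPM. The part of any of these cells in the results was not tested.

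A set of 3 libraries stood apart. In Poly-E, 64 genes of at least 10 CPM differed by more than 0.5 on the log2 scale between replicates 1 and 2 and replicates 3 and 4 in both genotypes, and the mean of the 42 higher less that of the 22 lower genes then scored each Ortho-E library. *Ypel4*-/- replicate 1 scored 1.67, *Ypel4*+/+ replicate 1 scored 2.11 and *Ypel4*+/+ replicate 2 scored 2.00, whereas the other 5 libraries lay between −0.14 and 0.45. Thus 1 *Ypel4*-/- and 2 *Ypel4*+/+ libraries stood apart, so the genotypes are not balanced for this difference and its part in a result cannot be fully told apart from genotype. The 64 genes included 8 cytosolic ribosomal protein genes, *Rpl23a* among them, 4 respiratory chain genes and *H3f3a*, so the split of those genes by the 3 libraries is in part built in. Values without the 3 libraries are given beside the results that moved most with them.

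The genotypes differed by little. Of 10521 tested genes, 3 passed an adjusted p of 0.05 (edgeR, Benjamini-Hochberg), which is 0.0285%, and all were *Ypel4*, *En2* or the neighbour *Gm19426*. An unadjusted p under 0.05 was reached by 387 genes (3.68%), 171 lower (1.63%) and 216 higher (2.05%) in *Ypel4*-/- cells. Scaled to library totals without TMM, the lower share of such genes went from 44.2% to 29.0%. The 4 libraries of each genotype did not overlap for 119 genes on the lower side (1.13%) and 158 on the higher side (1.5%). The median log2 fold change over all tested genes was 0.0047, and 50.9% of genes were above 0.

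The bounds on an effect were tight where expression was high. Each gene's 95% interval for the log2 fold change was taken from the same fit, per gene and without adjustment over genes. For 5729 genes (54.5%) the interval lay within a 2-fold change in either direction, and for 3553 (33.8%) within 1.5-fold. Among the 2686 genes with a mean of at least 20 CPM, 97.7% were held within 2-fold and 91.3% within 1.5-fold. Of these 47.5% were above 0, and at an unadjusted p under 0.05 there were 57 lower (2.12%) and 26 higher (0.968%). Genes held within 2-fold made up 95.3% to 98.0% of the counts of each library, and those held within 1.5-fold 89.3% to 92.3%. Most messages of these cells, weighed by counts rather than by genes, were thus bounded to less than a 2-fold change.

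In 5 classes of equal size ranked by mean log2 expression, the precision rose steeply. The lowest class, with a median of 0.40 CPM, had a median standard error of 0.94 and no gene held within 2-fold. The middle class, at 3.82 CPM, had 70.1% of its genes within 2-fold but 5.70% within 1.5-fold. The highest class, at 95 CPM, had a median standard error of 0.12, with 98.0% within 2-fold and 93.3% within 1.5-fold.

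No class moved as a whole. From the lowest class to the highest, the medians of the log2 fold change were 0.070, 0.068, 0.009, −0.007 and −0.010, and the quartiles narrowed from −0.47 and 0.64 to −0.09 and 0.07. In the highest class 41 genes were lower and 22 higher at an unadjusted p under 0.05, and in the lowest class 20 were lower and 53 higher. Both directions together came to 2.99% of the highest class and 3.47% of the lowest. Over all tested genes the share was 3.68%, with 1.63% lower and 2.05% higher. With the 3 libraries that stood apart left out, the median of the highest class was 0.014.

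**Figure D1:**
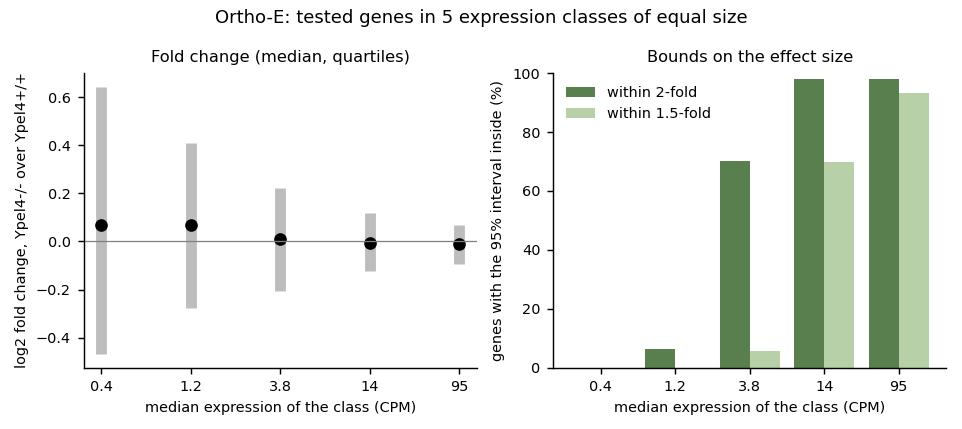
Tested genes in 5 expression classes of equal size, placed by the median CPM of the class. Left, the median log2 fold change of *Ypel4*-/- over *Ypel4*+/+ (points) with the quartiles (bars); right, the percent of genes whose 95% interval lies within 2-fold (dark) or 1.5-fold (light). The medians stay between −0.010 and 0.070 while the share within 2-fold climbs from 0 to 98.0%.

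Of the 2104 genes in the highest class, 43 were not held within 2-fold. Beside *Ypel4* these were mostly genes whose level varied among libraries of one genotype. *H3f3a*, a histone H3.3 gene chosen after its values were seen, was one of the 64 genes that scored the libraries and was high in the 3 that stood apart, at 1525 CPM in *Ypel4*-/- replicate 1 against 750 to 802 in the other *Ypel4*-/- libraries and at 1874 and 1681 CPM against 758 and 766 in the other *Ypel4*+/+ libraries. *Rn18s-rs5*, an 18S ribosomal RNA sequence, was at 15539 CPM in *Ypel4*-/- replicate 1 and 8583 CPM in replicate 3, and from 286 to 1852 CPM in the other 6 libraries.

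The membrane skeleton was bounded in full. All 14 tested genes of the list lay within 2-fold and 12 within 1.5-fold, 7 were on the higher side, and the median log2 fold change was 0.003 (0.043 without the 3 libraries). *Slc4a1* (chr11:102348824-102366203), which encodes band 3, the anion exchanger and main anchor of the skeleton, was at 29081, 33243, 32406 and 31233 CPM in *Ypel4*-/- replicates 1 to 4 and at 32505, 28255, 33002 and 30596 CPM in *Ypel4*+/+ replicates 1 to 4. The groups overlapped widely, and the interval left *Slc4a1* between 90.6% and 113% of the wild-type level.

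Most other skeleton genes stood nearly as close. *Sptb*, beta spectrin, was held between 93.0% and 122.9% of wild type, and *Ank1*, ankyrin, between 93.8% and 122.5%. *Epb4.1*, protein 4.1, lay between 91.1% and 116%, and *Epb4.2*, protein 4.2, between 83.7% and 107%. Wider bounds were left for *Mpp1*, the palmitoylated protein p55, between 62.2% and 119%, and for *Dmtn*, the actin bundling protein dematin, between 91.0% and 137%. Their log2 fold changes were −0.21 and 0.16, and −0.02 and 0.01 without the 3 libraries.

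Of the 21 tested genes for the band 3 complex, blood groups and surface glycoproteins, 19 were held within 2-fold, 9 were on the higher side, and the median was −0.037 (12 higher and 0.017 without the 3 libraries). *Rhag*, a subunit of the Rh complex, was at −0.11 with an interval from −0.31 to 0.09. *Icam4*, the Landsteiner-Wiener blood group adhesion molecule, was at 73.0, 73.5, 76.2 and 73.9 CPM in *Ypel4*-/- and at 111, 87.1, 82.2 and 77.0 CPM in *Ypel4*+/+ replicates 1 to 4. The groups did not overlap, though *Ypel4*+/+ replicate 4 nearly met the highest *Ypel4*-/- library. Its log2 fold change was −0.26 (unadjusted p = 0.0354), and −0.09 without the 3 libraries. *Cd55*, which shields cells from complement, was higher at 33.0 ± 3.90 CPM against 26.2 ± 2.48 CPM (SD, n = 4 each), a log2 fold change of 0.32 with an interval from 0.03 to 0.61, and the groups overlapped.

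For transport and lipid genes of the membrane the medians were near 0. Of 28 genes for volume, cation and nutrient transport 18 were on the higher side with a median of 0.018, and none reached an unadjusted p under 0.05, where 3.68% of all genes did, a share that would be about 1 of 28. For 7 phospholipid flippases and scramblases, which set the sidedness of membrane lipids, the median was −0.010 and again none reached it.

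Heme synthesis was bounded throughout: all 17 tested genes lay within 2-fold and 13 within 1.5-fold, 7 were on the higher side, and the median was −0.030 (0.052 without the 3 libraries). *Alas2*, the rate-limiting erythroid enzyme of the pathway, was held between 84.9% and 108.8% of wild type. The lowest heme gene was *Alad*, the second enzyme, at −0.21 with an interval from −0.77 to 0.34 and at −0.09 without the 3 libraries. The highest was *Abcb6*, a porphyrin transporter named after its values were seen, at 0.31 with an interval from −0.08 to 0.69. For 21 genes of iron uptake and storage the median was 0.032, and *Tfrc*, the transferrin receptor, lay between 84.6% and 107% of wild type.

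*Hbb-bs*, the main adult beta globin gene of this strain, was at 65294, 66298, 65563 and 61970 CPM in *Ypel4*-/- replicates 1 to 4 and at 93708, 81303, 70384 and 63871 CPM in *Ypel4*+/+ replicates 1 to 4. Both highest values belonged to the wild-type libraries that stood apart, and the groups overlapped. The log2 fold change was −0.26 (unadjusted p = 0.00917, adjusted p = 0.995), and −0.05 without the 3 libraries. *Hba-a2*, an alpha globin gene, was at 0.04 with an interval from −0.14 to 0.23. Globin genes have near-identical copies, and pairs that mapped to both were left out of the counts.

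**Figure D2:**
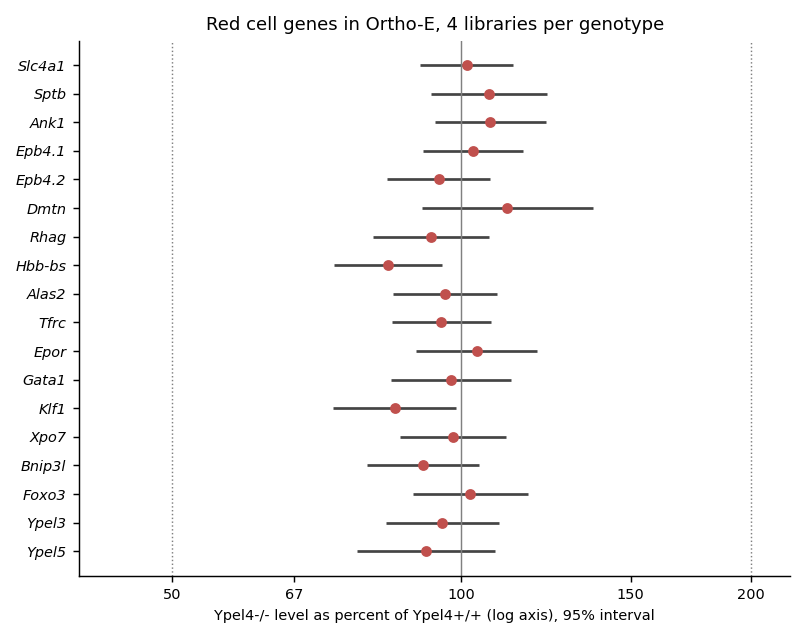
*Ypel4*-/- level as a percent of *Ypel4*+/+ (log axis) for red cell genes in Ortho-E, with the 95% interval from edgeR; dotted lines mark a 2-fold change. *Slc4a1* spans 90.6% to 113%, no interval shown reaches a dotted line, and those of *Hbb-bs* and *Klf1* lie below 100%.

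Among erythroid regulators the tested genes were balanced. Of 37 transcription factors 22 were on the higher side with a median of 0.017 (0.007 without the 3 libraries). *Gata1*, which encodes the master factor of the lineage, was held between 84.5% and 113% of wild type. *Klf1*, the activator of adult beta globin and membrane genes, was at 203, 212, 202 and 225 CPM in *Ypel4*-/- and at 292, 253, 219 and 227 CPM in *Ypel4*+/+ replicates 1 to 4, a log2 fold change of −0.23 (unadjusted p = 0.0349). The highest wild-type values were again those of the libraries that stood apart, and without the 3 libraries the value was −0.06. *Klf13*, a related Krüppel-like factor, was at 22.4, 18.5, 17.2 and 21.8 CPM in *Ypel4*-/- and at 11.5, 12.7, 16.2 and 15.7 CPM in *Ypel4*+/+ replicates 1 to 4. Its groups did not overlap, with a log2 fold change of 0.49 (unadjusted p = 0.00647) and 0.29 without the 3 libraries. *Myb*, which keeps progenitors dividing, was low throughout, at 3.41 ± 0.953 CPM against 1.76 ± 0.540 CPM (SD, n = 4 each), a log2 fold change of 0.86 and 0.55 without the 3 libraries.

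Erythropoietin signalling gave a median of 0.047 over 29 genes, 0.009 without the 3 libraries. *Epor*, the erythropoietin receptor, was held between 89.7% and 120% of wild type, whereas *Cish*, a STAT5 target that is fed back on the receptor, was too low to bound: at 2.93 ± 1.28 CPM against 1.37 ± 1.35 CPM (SD, n = 4 each) its interval ran from −0.10 to 1.96, and its log2 fold change went from 0.92 to 0.35 without the 3 libraries.

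For 33 genes of enucleation and nuclear condensation the median was −0.042, and 0.008 without the 3 libraries. *Xpo7*, a nuclear exporter induced late in the lineage, lay between 86.4% and 111% of wild type. *Cit*, citron kinase, which acts at the end of cell division, was at 283, 440, 369 and 306 CPM in *Ypel4*-/- and at 266, 279, 279 and 310 CPM in *Ypel4*+/+ replicates 1 to 4, a log2 fold change of 0.30 (unadjusted p = 0.0142, 0.33 without the 3 libraries). The groups overlapped through *Ypel4*+/+ replicate 4.

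Of 39 genes for autophagy and mitochondrial clearance 20 were on the higher side with a median of 0.015, and without the 3 libraries 30 of 38 were higher with a median of 0.057. *Bnip3l*, the receptor by which maturing red cells remove mitochondria, lay between 79.7% and 104% of wild type. *Foxo3*, a driver of that program, lay between 89.0% and 117%. The CTLH ubiquitin ligase, which includes the family member YPEL5, had a median of −0.007 over 12 genes (0.052 without the 3 libraries), and *Ypel5* itself was held between 77.8% and 108% and *Ypel3* between 83.4% and 109.3% of wild type.

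Lists of genes for 46 functions were then set side by side. They held 1526 different tested genes, of which 677 were on the higher side and 0 passed an adjusted p of 0.05. Above 0 were 50.9% of all tested genes and 47.5% of those of at least 20 CPM. An unadjusted p under 0.05 was reached on the lower side by 30 (1.97%) and on the higher side by 32 (2.10%), close to the 1.63% and 2.05% of all tested genes. For each list every library was given the mean log2 CPM of the tested members, taken from the mean of the 8 libraries. The 4 libraries of one genotype stood clear of the other 4 for 0 of the 46 lists. The medians of the log2 fold change ran from −0.206 to 0.246, with 37 of 46 between −0.1 and 0.1, 6 lower and 3 higher.

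**Figure D3:**
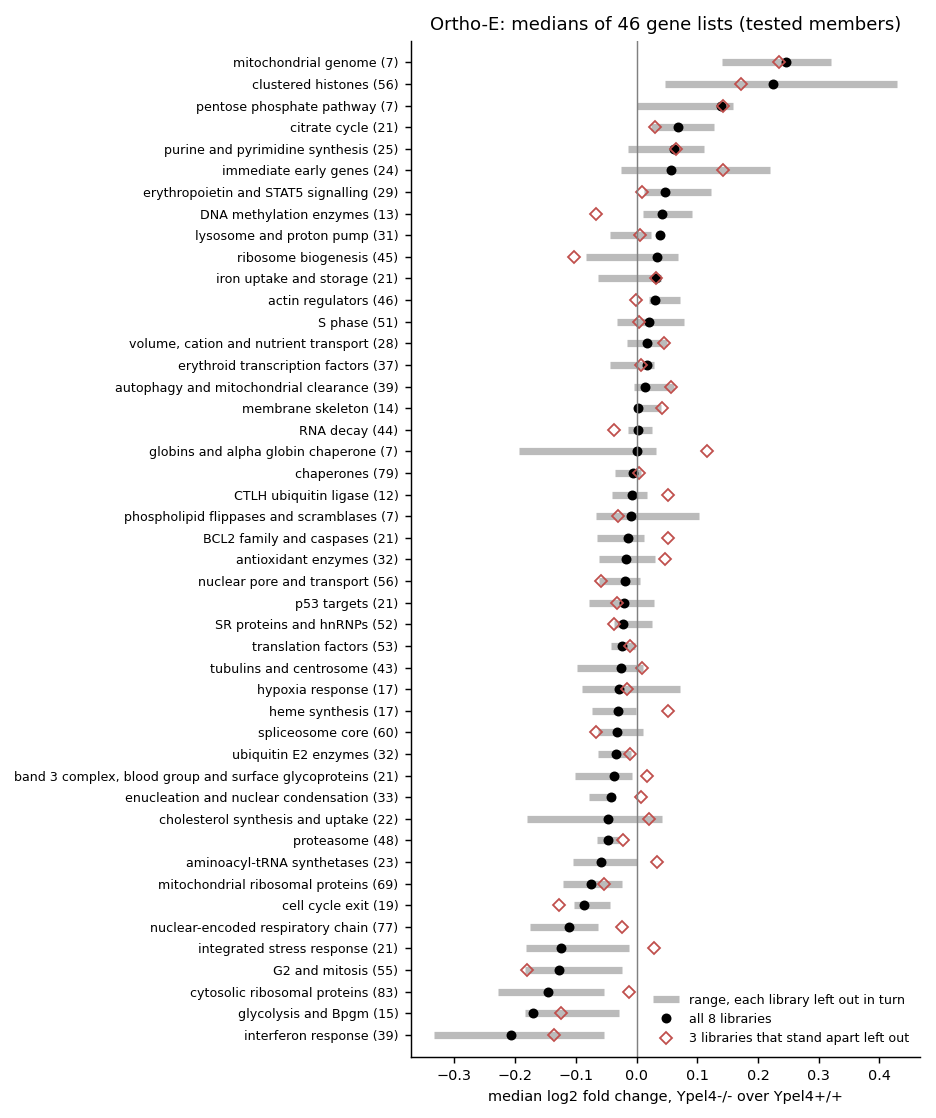
Median log2 fold change (*Ypel4*-/- over *Ypel4*+/+) of the tested members of 46 gene lists in Ortho-E, with the number of members in brackets. Black points use all 8 libraries, grey bars span the medians with each library left out in turn, and open diamonds leave out the 3 libraries that stood apart; 37 black points lie between −0.1 and 0.1.

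Genes of G2 and mitosis were on the lower side with and without the libraries that stood apart. Of 55 tested genes 11 were higher and 44 lower, the median was −0.128, and it was −0.181 with 9 higher when the 3 libraries were left out. Left out one at a time, the libraries gave medians from −0.183 to −0.024, the last without *Ypel4*+/+ replicate 4. All 55 genes were held within 2-fold and 44 within 1.5-fold. An unadjusted p under 0.05 was reached by 3, all lower, where 1.63% of all genes and 2.12% of those of at least 20 CPM were lower at that p. The mean log2 level of the list, from the mean of the 8 libraries, was −0.02, −0.11, −0.12 and 0.04 in *Ypel4*-/- and −0.03, 0.06, −0.07 and 0.24 in *Ypel4*+/+ replicates 1 to 4. The groups overlapped, and the highest library, *Ypel4*+/+ replicate 4, lay far above the rest. A smaller share of dividing cells in the gate and less message per cell cannot be told apart in such bulk libraries.

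These are messages on their way out at this stage: from Poly-E to Ortho-E, over both genotypes weighted equally, the median of the list was −1.74 on the log2 scale, with 44 of 55 genes down by more than 1. In Poly-E, whose libraries came from the same mice as far as the deposited names show, 8 of 55 were on the higher side in *Ypel4*-/- cells and the median was −0.064. The list level in Poly-E was 0.03, 0.07, −0.28 and 0.05 in *Ypel4*-/- replicates 1 to 4. In *Ypel4*+/+ replicates 1 to 4 it was −0.08, 0.07, 0.01 and 0.13. The groups overlapped, and *Ypel4*-/- replicate 3 lay far below the rest. Lists for S phase gave no shift to the lower side in Ortho-E, with 28 of 51 genes on the higher side and a median of 0.021.

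Many mitotic genes share promoter elements, TTTGAA, the core of the cell cycle genes homology region through which the MuvB complex represses and later activates them, and CCAAT, the box bound by NF-Y. The promoters of the 3 list members at an unadjusted p under 0.05 are shown to set these elements beside the members with the smallest p. They are 300-base RefSeq sequences of GRCm38.p6 that end 50 bases after the annotated start, 5′ to 3′ on the strand of the gene, with both motifs in capitals on either strand, so that TTCAAA stands for the first and ATTGG for the second where they lie on the opposite one. *Cdca8* is at chr4:124936868-124937167 on the − strand, *Ndc80* at chr17:71526808-71527107 on the − strand, and *Ube2c* at chr2:164769679-164769978 on the + strand.
Cdca8: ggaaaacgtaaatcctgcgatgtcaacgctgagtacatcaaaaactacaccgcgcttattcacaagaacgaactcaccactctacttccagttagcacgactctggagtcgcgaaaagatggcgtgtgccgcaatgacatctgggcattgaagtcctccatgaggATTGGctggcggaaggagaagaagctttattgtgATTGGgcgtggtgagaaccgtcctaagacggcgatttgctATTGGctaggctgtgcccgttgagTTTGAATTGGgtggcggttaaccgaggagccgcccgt
Ndc80: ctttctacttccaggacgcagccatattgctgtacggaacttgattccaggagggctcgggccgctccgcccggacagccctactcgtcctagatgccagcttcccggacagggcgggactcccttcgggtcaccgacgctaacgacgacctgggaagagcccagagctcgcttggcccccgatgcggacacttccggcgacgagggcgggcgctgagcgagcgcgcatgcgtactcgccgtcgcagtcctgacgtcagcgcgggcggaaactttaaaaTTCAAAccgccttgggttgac
Ube2c: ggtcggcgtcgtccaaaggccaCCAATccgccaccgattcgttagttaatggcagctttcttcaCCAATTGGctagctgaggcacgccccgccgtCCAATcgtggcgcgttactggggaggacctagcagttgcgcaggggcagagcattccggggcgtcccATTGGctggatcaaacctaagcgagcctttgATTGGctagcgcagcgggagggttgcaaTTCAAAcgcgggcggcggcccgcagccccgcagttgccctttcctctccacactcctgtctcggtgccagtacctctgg

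The first motif lay at base 14 from the start in *Cdca8*, where it shares a base with the second, at base 30 in *Ndc80* on the opposite strand, and 29 bases before the start in *Ube2c* on the opposite strand. Of the 47 list members with a promoter in the table, 34 (72.3%) held TTTGAA and 36 (76.6%) held CCAAT, and 30 (63.8%) held both. Over all 27025 promoters of the table the shares were 18.1%, 37.9% and 7.12%. Of 39 S phase promoters 4 (10.3%) held TTTGAA and 25 (64.1%) CCAAT, and of 62 ribosomal protein promoters 4 (6.45%) held TTTGAA. A match is a description of the letters and not of binding.

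*Cdca8*, which encodes borealin of the chromosomal passenger complex, was at 61.5, 53, 52.6 and 57.5 CPM in *Ypel4*-/- and at 81.5, 74.7, 60.7 and 67.1 CPM in *Ypel4*+/+ replicates 1 to 4. The *Ypel4*-/- replicates 2 to 4 lay below every wild-type library, and replicate 1 lay just above the lowest of them. The log2 fold change was −0.33 (unadjusted p = 0.00995), from −0.40 to −0.26 with each library left out and −0.23 without the 3 libraries. *Ube2c*, the ubiquitin-conjugating enzyme of the anaphase-promoting complex, was at 277, 255, 287 and 264 CPM in *Ypel4*-/- and at 321, 313, 309 and 296 CPM in *Ypel4*+/+ replicates 1 to 4. Its groups did not overlap, and the log2 fold change was −0.19 (unadjusted p = 0.0474) and between −0.23 and −0.17 with each library left out. *Ndc80*, a kinetochore protein, was at 20.2, 14.5, 14.5 and 19.4 CPM in *Ypel4*-/- and at 32.5, 19.4, 17.5 and 26.3 CPM in *Ypel4*+/+ replicates 1 to 4. The groups overlapped, with a log2 fold change of −0.48 (unadjusted p = 0.0128) and −0.44 without the 3 libraries.

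Other mitotic genes moved less or not with them. *Nuf2*, the partner of NDC80 in the kinetochore, was at −0.32 (unadjusted p = 0.052) and *Aurka*, aurora kinase A, at −0.30 (unadjusted p = 0.056), both chosen here after their values were seen. *Bub1b*, a spindle checkpoint kinase, was the highest of the list at 0.20 with an interval from −0.14 to 0.54. *Pbk*, a mitotic kinase that was not in the list, was among the 10 genes of smallest p: it was at 20.8, 13.9, 17.2 and 20.2 CPM in *Ypel4*-/- and at 24.6, 30.6, 23.7 and 28.2 CPM in *Ypel4*+/+ replicates 1 to 4. Its groups did not overlap, with a log2 fold change of −0.56 (adjusted p = 0.995) and −0.58 without the 3 libraries.

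Genes of the translation machinery showed a shift that went at least in part with the libraries. Of 83 tested cytosolic ribosomal protein genes 14 were on the higher side, the median was −0.145, and 73 were held within 2-fold. Without the 3 libraries that stood apart 37 of 83 were higher and the median was −0.012. With all 8 libraries and a term for those 3, 26 were higher and the median was −0.064. Among the 78 of at least 10 CPM, 45 were higher in each of those 3 libraries than in each of the other 5. The list level, from the mean of 8, was 0.15, −0.16, −0.11 and −0.14 in *Ypel4*-/- and 0.29, 0.19, −0.11 and −0.12 in *Ypel4*+/+ replicates 1 to 4, so that the 3 libraries that stood apart were the only ones above 0. In Poly-E 81 of 83 were on the higher side in *Ypel4*-/- cells with a median of 0.162. The list level there was 0.28, 0.23, 0.06 and −0.25 in *Ypel4*-/- and −0.01, 0.13, −0.14 and −0.29 in *Ypel4*+/+ replicates 1 to 4, and the groups overlapped.

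*Rpl23a*, a protein of the large subunit and one of the 64 genes that scored the libraries, was the lowest member of at least 20 CPM, at 127, 29.9, 37.5 and 32.7 CPM in *Ypel4*-/- and at 136, 110, 35.9 and 33.1 CPM in *Ypel4*+/+ replicates 1 to 4. Its log2 fold change of −0.48 had an interval from −2.27 to 1.31 and was −0.04 without the 3 libraries. *Rps15a*, of the small subunit, was at 130, 129, 129 and 120 CPM in *Ypel4*-/- and at 169, 176, 130 and 138 CPM in *Ypel4*+/+ replicates 1 to 4. The groups did not overlap, yet *Ypel4*+/+ replicate 3 all but met the highest *Ypel4*-/- library, and the log2 fold change was −0.27 with all libraries and −0.09 without the 3. Ribosomal protein genes have many processed copies, and pairs that mapped to several of them were left out of the counts.

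Nuclear genes of the respiratory chain were also mostly on the lower side, but went less with the libraries. Of 77 tested genes 17 were on the higher side with a median of −0.111. Without the 3 libraries 33 were higher with a median of −0.025, and with a term for them 22 with a median of −0.104. The list level was −0.05, −0.13, −0.06 and 0.02 in *Ypel4*-/- and 0.17, 0.11, 0.03 and −0.08 in *Ypel4*+/+ replicates 1 to 4. Among the 52 of at least 10 CPM, 19 were higher in each of the 3 libraries than in each of the other 5. An unadjusted p under 0.05 was reached by 4, all lower, where 1.63% of all genes and 2.12% of those of at least 20 CPM were lower at that p. *Cox5b*, a subunit of cytochrome c oxidase, was at 37.9, 30.9, 34.1 and 38.8 CPM in *Ypel4*-/- and at 57.7, 46.7, 38.3 and 40.3 CPM in *Ypel4*+/+ replicates 1 to 4, with a log2 fold change of −0.36 and −0.17 without the 3 libraries. *Atp5l*, a subunit of ATP synthase, was at 18 ± 1.31 CPM against 22.9 ± 2.86 CPM (SD, n = 4 each) without overlap, a log2 fold change of −0.35 and −0.29 without the 3 libraries. *Cox8a*, another oxidase subunit, was at −0.27 and *Ndufb7*, of complex I, at −0.56, and without the 3 libraries at −0.15 and −0.32.

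The fold changes also varied with gene length. Among genes of at least 10 CPM, the 398 shortest had a median log2 fold change of −0.082 and the next 672 one of −0.052, against 0.018 for the 986 longest. Without the 3 libraries these medians were −0.005, −0.008 and 0.012, and with a term for those libraries −0.045, −0.048 and 0.007. Most ribosomal protein messages are short.

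Messages from the mitochondrial genome stood on the other side. Only 7 of the 13 protein genes had enough counts to be tested, and all 7 were higher in *Ypel4*-/- cells with a median of 0.246, 0.234 without the 3 libraries and from 0.140 to 0.321 with each library left out. The list level was 0.37, 0.16, 0.16 and −0.18 in *Ypel4*-/- and −0.01, −0.10, −0.10 and −0.31 in *Ypel4*+/+ replicates 1 to 4. The replicates numbered 4 were the lowest of their genotypes, and the groups overlapped only through *Ypel4*-/- replicate 4. The 7 genes share 1 polycistronic transcript per strand and are not independent.

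*mt-Nd5*, of complex I, was at 110, 95.4, 119 and 85.2 CPM in *Ypel4*-/- and at 64.1, 64.3, 91.0 and 77.3 CPM in *Ypel4*+/+ replicates 1 to 4. The log2 fold change was 0.45 (interval 0.19 to 0.72, adjusted p = 0.995) and 0.24 without the 3 libraries. *mt-Nd6*, the only protein gene on the other strand, was at 15.8, 15.5, 13.8 and 11.1 CPM in *Ypel4*-/- and at 9.80, 10.5, 9.30 and 10.1 CPM in *Ypel4*+/+ replicates 1 to 4, without overlap, and at 0.43 on the log2 scale without the 3 libraries. It shares bases with *mt-Nd5* on the opposite strand, and the counts are not stranded. *mt-Co1*, a core subunit of the oxidase and by far the most counted, was at 0.03 with an interval from −0.23 to 0.30, and at 0.16 without the 3 libraries. In Poly-E all 7 were also higher, with a median of 0.377. The list level in Poly-E was 0.02, 0.56, 0.15 and −0.09 in *Ypel4*-/- replicates 1 to 4. In *Ypel4*+/+ replicates 1 to 4 it was 0.003, −0.21, −0.18 and −0.24. The groups overlapped, and *Ypel4*-/- replicate 2 lay far above the rest.

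Interferon response genes were on the lower side in most members, by a size that depended on 1 library. Of 39 tested genes 5 were on the higher side with a median of −0.206, and without the 3 libraries 7 of 38 with a median of −0.136. The list level was 0.61 in *Ypel4*+/+ replicate 1 and from −0.27 to 0.23 in the other 7 libraries, and without that library the median was −0.053. *Isg15*, the ubiquitin-like modifier that interferon induces, was at 591, 561, 497 and 491 CPM in *Ypel4*-/- and at 1255, 670, 535 and 634 CPM in *Ypel4*+/+ replicates 1 to 4. Its log2 fold change was −0.53 with an interval from −1.21 to 0.14, and −0.18 without the 3 libraries. *Oasl2*, a relative of the oligoadenylate synthetases, was at −0.56 (−0.31 without the 3 libraries) and *Samhd1*, a nucleotide hydrolase of the same response, at 0.04 (0.15). In Poly-E 3 of 38 were on the higher side with a median of −0.232. There too *Ypel4*+/+ replicate 1 was the highest, with a list level of 0.68 against −0.25 to 0.15 in the other 7 libraries.

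Clustered histone genes were on the higher side, 37 of 56 with a median of 0.224 and 7 higher at an unadjusted p under 0.05 against 1 lower, where 2.05% of all genes were higher and 1.63% lower at that p. *Ypel4*-/- replicate 1 alone had a list level of 0.64, and without it the median was 0.046 (0.172 without the 3 libraries). *Hist1h1e*, a linker histone, was at 63.4, 11.4, 30.9 and 16.7 CPM in *Ypel4*-/- and at 16, 17.9, 15.3 and 12.2 CPM in *Ypel4*+/+ replicates 1 to 4. The *Ypel4*-/- replicates 1 and 3 were high, and they were also the 2 with the most *Rn18s-rs5*. Histone messages and ribosomal RNA both lack the long poly(A) tail used to select messages, and the part of that selection was not tested. The 1 lower gene was *H2afx*, at −0.26 with an interval from −0.51 to −0.01. It is a list member on chromosome 9, outside the *Hist1* cluster on chromosome 13, and its message can be polyadenylated.

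Regulators of actin came closest to standing clear. Their level was 0.05, 0.02, 0.03 and 0.07 in *Ypel4*-/- and −0.07, −0.10, 0.02 and −0.01 in *Ypel4*+/+ replicates 1 to 4, and only *Ypel4*-/- replicate 2 and *Ypel4*+/+ replicate 3 met. The median of the 46 genes was 0.030, with 28 on the higher side, and from 0.020 to 0.072 with each library left out. Without the 3 libraries 23 of 46 were higher. *Ssh1*, the phosphatase that activates cofilin, was at 168, 185, 165 and 157 CPM in *Ypel4*-/- and at 142, 138, 139 and 149 CPM in *Ypel4*+/+ replicates 1 to 4. Its groups did not overlap, and the log2 fold change was 0.25 (unadjusted p = 0.0198), 0.23 without the 3 libraries and −0.01 in Poly-E. *Arpc2*, a core subunit of the Arp2/3 complex that nucleates actin branches, was lower without overlap, at 7.26 ± 1.53 CPM against 10.2 ± 1.62 CPM (SD, n = 4 each).

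**Figure D4:**
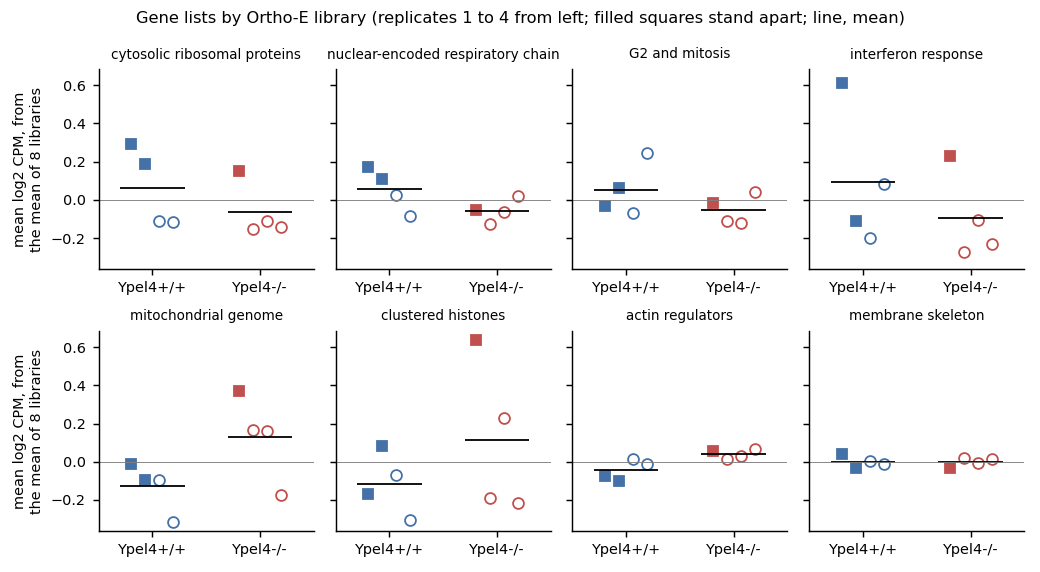
Mean log2 CPM of 8 gene lists in each Ortho-E library, from the mean of the 8 libraries, with *Ypel4*+/+ in blue and *Ypel4*-/- in red; lines mark genotype means and filled squares the 3 libraries that stood apart. The ribosomal protein list is above 0 in those 3 libraries only, the mitosis list has its highest value in *Ypel4*+/+ replicate 4, and the membrane skeleton list stays within 0.05 of 0.

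The remaining lists held small values. In glycolysis, most of whose messages were near 2 CPM here, 6 of 15 genes were on the higher side with a median of −0.170, and leaving out *Ypel4*+/+ replicate 4 brought it to −0.029. For the pentose phosphate pathway, the red cell source of NADPH, 5 of 7 genes were higher with a median of 0.140, from 0.000 to 0.158 with each library left out. The citrate cycle had 15 of 21 higher with a median of 0.068 (0.030 without the 3 libraries), and *Ogdh*, of its oxoglutarate dehydrogenase, was at 0.24 with an interval from 0.03 to 0.45. The integrated stress response, the program of ATF4, went from −0.124 to 0.029 when the 3 libraries were left out.

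Protein turnover was near 0, with a median of −0.048 over 48 proteasome and −0.005 over 79 chaperone genes. Without overlap between the genotypes stood 1 lower and 1 higher proteasome gene and 1 lower and 2 higher chaperone genes, where 1.13% of all genes were lower and 1.5% higher without overlap. *Psmb3*, a core proteasome subunit, was at 6.40 ± 1.87 CPM against 9.83 ± 1.11 CPM, and *Bag3*, a cochaperone of HSP70, at 16.1 ± 2.17 CPM against 11.4 ± 2.32 CPM (SD, n = 4 each). *Psmd12*, of the proteasome cap, was at 0.20 with an interval from −0.09 to 0.49, and *Hspd1*, the mitochondrial HSP60, at −0.68 with one from −1.32 to −0.04. *Bag5*, another HSP70 cochaperone, was at 0.656 CPM on average and is hardly bounded. *Hsp90aa1*, the inducible HSP90, was at −0.30, and at −0.08 without the 3 libraries. For splicing the 60 core genes had a median of −0.032 and the 52 SR proteins and hnRNPs one of −0.022, and without the 3 libraries −0.066 and −0.037.

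Genes were also grouped by their change from Poly-E to Ortho-E over both genotypes weighted equally. Of at least 10 CPM, the 772 that fell by more than 1 on the log2 scale had a median genotype difference of −0.038, with 22 lower and 3 higher at an unadjusted p under 0.05. The 1288 that rose by more than 1 had a median of −0.009 with 27 lower and 17 higher, and the 1639 between them one of 0.002 with 28 lower and 22 higher. Of all tested genes 1.63% were lower and 2.05% higher at that p, and of those of at least 20 CPM 2.12% and 0.968%. Without the 3 libraries the medians were −0.092, 0.036 and 0.004 in the same order.

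Beyond *Ypel4*, *En2* and genes within its neighbourhood, no single gene passed the adjusted threshold in the edgeR comparison of the 8 libraries. DESeq2 on the same libraries passed *Lrrc8d*, a subunit of a volume-regulated anion channel, which was at 0.621, 0.507, 1.49 and 1.15 CPM in *Ypel4*-/- and at 0.560, 36.6, 99.0 and 118.7 CPM in *Ypel4*+/+ replicates 1 to 4. All *Ypel4*-/- libraries were low, and so was *Ypel4*+/+ replicate 1, so the groups overlapped. In edgeR the log2 fold change was −5.98 with an interval from −9.55 to −2.47 (adjusted p = 0.995), and in Poly-E it was 0.62. The smallest edgeR p was that of *Syt14* (chr1:192891233-193035775), a synaptotagmin-like protein of membrane traffic, at 15.5, 22.3, 23.8 and 26.5 CPM in *Ypel4*-/- and at 35.3, 32.5, 38.1 and 32.0 CPM in *Ypel4*+/+ replicates 1 to 4. All *Ypel4*-/- libraries lay below all wild-type ones, with a log2 fold change of −0.62 (interval −0.93 to −0.31, adjusted p = 0.780). It was −0.51 without the 3 libraries and −1.07 in Poly-E, and a term for those libraries, added after seeing the data, brought the adjusted p to 0.0274.

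*Mef2d* (chr3:88142372-88172086), a transcription factor of the MEF2 family, was at 57.8, 84.7, 48.7 and 59.5 CPM in *Ypel4*-/- and at 30.0, 32.5, 41.9 and 47.9 CPM in *Ypel4*+/+ replicates 1 to 4. The groups were apart by a narrow margin, with a log2 fold change of 0.70 (edgeR adjusted p = 0.854, but past the threshold with no filter), 0.50 without the 3 libraries and −0.01 in Poly-E. *Pnp*, a purine salvage enzyme abundant in erythroblasts, was at 574, 515, 459 and 719 CPM in *Ypel4*-/- and at 471, 411, 433 and 380 CPM in *Ypel4*+/+ replicates 1 to 4. Its log2 fold change was 0.42, and the groups met only through *Ypel4*-/- replicate 3 and *Ypel4*+/+ replicate 1.

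*Mon1b*, which acts in the maturation of endosomes, was at 12.7, 7.35, 7.24 and 6.92 CPM in *Ypel4*-/- and at 3.92, 4.48, 4.21 and 4.89 CPM in *Ypel4*+/+ replicates 1 to 4, a log2 fold change of 0.90 without overlap and 0.63 without the 3 libraries. Among the B cell markers *Cd79a* and *Pax5* were higher at an unadjusted p under 0.05. *Nfam1*, *Peak1* and *Rab11fip1*, also among the 10 genes with the smallest p, had means under 0.5 CPM and are not bounded in any useful way.

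**Figure D5:**
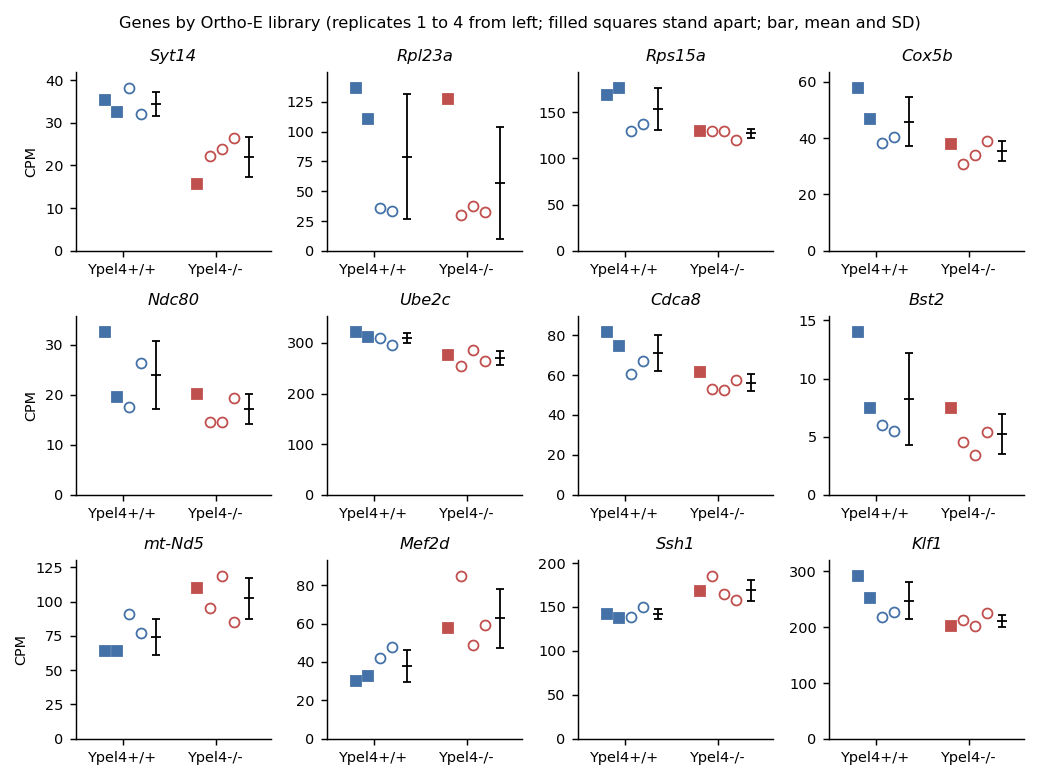
CPM of 12 genes in each Ortho-E library, *Ypel4*+/+ in blue and *Ypel4*-/- in red, replicates 1 to 4 from left, with the mean and SD as bars and filled squares for the 3 libraries that stood apart. *Rpl23a* splits by those libraries and not by genotype, whereas *Syt14*, *Ube2c*, *Mef2d* and *Ssh1* show all *Ypel4*-/- libraries on one side of all wild-type ones.

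Whether a genotype difference was larger in Ortho-E than in Poly-E was tested as an interaction over all 16 libraries. Of 13318 genes the adjusted test of edgeR passed 0, 363 (2.73%) had an unadjusted p under 0.05, and 1 passed in DESeq2 (*Lrrc8d*). With each replicate as a block, as the deposited names pair the populations, 1 passed, *Ypel4* itself. The other interaction results here, and the p-values that follow, come from fits without that block and so leave the pairing out. *Mef2d* (0.0113), *Pbk* (0.0151), *Rps15a* (0.0138) and *Atp5l* (0.0133) had unadjusted interaction p-values under 0.05 and adjusted values of 1. Differences between the populations in the list medians given above were not tested.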

How the data were processed

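RNA was sequenced from Ortho-E and Poly-E cells with TruSeq RNA v2 libraries on a NextSeq 500/550. The authors aligned the reads to GRCm38 in the nf-core/rnaseq pipeline and deposited whole-number counts of read pairs per gene, made with featureCounts 1.6.4 from exons by gene identifier, paired, not stranded, and without pairs that mapped to several places or genes. Groups and replicate numbers came from the sample titles. Genes with 10 or more counts in all over the 8 Ortho-E libraries were tested in R 4.3.3 with edgeR 4.0.16 (TMM, robust quasi-likelihood, Benjamini-Hochberg threshold 0.05), and 95% intervals came from the same fit. The fit was tested on simulated counts. List levels used log2 CPM with a prior count of 2. Promoters came from RefSeq on GRCm38.p6, matched by symbol.

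The members and the 46 lists were chosen with earlier results of these data known, so lists carry no test. Named genes were a fixed set of red cell and *Ypel* genes, the lowest and highest members of each list with at least 20 CPM, members at an unadjusted p under 0.05, the 10 genes of smallest p, the 5 lowest and 5 highest of at least 100 CPM, and genes called in an alternative; some of these are not reported here, and others are said to be chosen after their values were seen. Alternatives were DESeq2 1.42.0, its size factors, library totals, filterByExpr, no filter, all 16 libraries, globin genes left out, limma 3.58.1 voom, the replicate block, a term for replicates 1 and 2 against 3 and 4, and each library left out. The 3 libraries that stood apart, left out or given a term, were chosen after seeing the data.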

Additional observations from a re-analysis of the deposited data

Results flagged for a closer look

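Of 130 groups of 4 libraries screened with Dixon's test, 4 had a library far from the other 3, while chance alone flags about 1 in 20, here 6.5. In *Ypel4*-/- replicate 1, one of the 3 libraries that stood apart, the cytosolic ribosomal protein list was at 0.151 on the log2 scale from the mean of the 8 libraries, against −0.155 to −0.112 in the other *Ypel4*-/- libraries. The list for autophagy and mitochondrial clearance was at −0.137 there, against 0.051 to 0.069. *Alas2* was at 10009 CPM in *Ypel4*-/- replicate 4, against 11178 to 11332 CPM. The list for iron uptake and storage was at −0.064 in *Ypel4*+/+ replicate 4, against 0.025 to 0.037.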

How the results depend on the processing

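The number of genes held within 2-fold stayed within 1.5 times 5729 under every alternative run. The 3 genes past the adjusted threshold became 4 with DESeq2 (*Lrrc8d* added), 4 with the term for replicates 1 and 2 against 3 and 4 (*Hist1h1c*), 4 without *Ypel4*+/+ replicate 2 (*Nrros*) and 5 with no filter (*Mef2d* and *Gm37653*). They became 5 with a term for the 3 libraries that stood apart (*Syt14* and the neighbour *Zdhhc5*) and 5 with those left out (*Nrros* and *Lrrc8d*), both chosen after seeing the data. The replicate block gave 13 calls, but same-numbered libraries of the genotypes correlated at 0.406, −0.140, 0.209 and 0.443, so the numbers were not taken as pairs, and not every library matched its own number best. The 387 genes at an unadjusted p under 0.05 became 219 with DESeq2, 214 with filterByExpr and 678 with no filter. Against 0 lists without overlap, DESeq2 size factors gave 1, filterByExpr 1, the term for replicates 1 and 2 against 3 and 4 gave 1, the replicate block 4, and each library left out 1 to 3. Leaving out the 3 libraries gave 5 (erythroid transcription factors, autophagy, antioxidant enzymes and actin regulators higher, the spliceosome core lower), where 17.6% of single genes did not overlap among the other 5 libraries. The median of the highest class was 0.0241 with library totals against −0.0097, which also moved the median of all genes to 0.037. The interaction gave 1 call with DESeq2, 1 with the replicate block and 0 to 1 with each replicate left out of both populations, the 1 being *Lrrc8d* without *Ypel4*+/+ replicate 1. Depth limits the lower expression classes. No called direction turned for a named gene under the alternatives run.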
